A study of Mus musculus with 6 samples.

Results

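The genes described here are 10 genes of heart muscle, as they read in RNA of whole mouse lung. Myh6, Myh7, Tnnt2, Tnni3, Actc1, Myl4, Myl7, Ryr2 and Pln belong to its contractile and calcium-handling machinery, and Nppa encodes a hormone. The 10 genes were chosen by name. Every probe set whose annotation names exactly 1 gene, and that gene is one of the 10, was taken: 17 of the 45037 probe sets tested, or 10 of 18193 genes. Whole lungs of E18.5 mouse embryos, close to birth, were hybridised to Affymetrix Mouse430_2 arrays, 3 labelled wild-type (WT 1 to WT 3) and 3 labelled GATA6 KO (KO 1 to KO 3). GATA6 is a zinc finger transcription factor, and the series asks which lung genes it regulates. The strain, the allele, and any promoter or Cre that removes the gene are not given in the sources used here. Nothing in the labels says that the arrays of a group come from separate embryos, so the p-values measure only the spread between these arrays, which may be technical.

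In the mouse, heart muscle is not confined to the heart: a sleeve of cardiomyocytes runs along the pulmonary veins into the lung, so whole lung can hold heart muscle RNA from that sleeve or from heart tissue carried over at dissection. Cardiomyocytes contract through thick filaments of myosin heavy chains (Myh6, Myh7) with their light chains (Myl4, Myl7), sliding on thin filaments of cardiac actin (Actc1) that are gated by troponin T and I (Tnnt2, Tnni3). Calcium for each beat leaves its store through the ryanodine receptor (Ryr2) and returns through a pump held back by phospholamban (Pln). Nppa encodes the atrial natriuretic peptide, a hormone of the atria. Myl4 and Myl7 are the light chains typical of atrial and embryonic myocardium, where Myl2 and Myl3 serve the ventricle.

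The deposited values are linear intensities, and levels below are log2 of the intensity plus 16. Differences and folds are on that scale, which understates the change of low genes. A probe set is called near the floor where it lay below 5 on this scale, an intensity under 16, on all 6 arrays, which 43.1% of all probe sets did. The median intensity per array lay between 20.6 and 24.1. Gata6 itself read 11.12, 10.26 and 10.42 in WT 1 to WT 3 and 11.58, 11.39 and 11.19 in KO 1 to KO 3. It read higher on each KO array than on any WT array, by 0.79 (SE 0.25) or 1.73-fold, with an unadjusted p of 0.0194 and an adjusted p of 0.963 in limma. Where its probe set lies relative to the deleted part is not known here, so its level cannot show whether the deletion and the labels hold. The fluidics station that washed the arrays was number 1 for WT 1 and WT 2 and number 2 for the other 4.

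Of the 10 genes, 8 read above the floor in late fetal lung, and none of the 10 differed between the arrays labelled KO and WT beyond the spread between arrays. Most of them varied across the labels instead: Myl4, Myl7, Actc1, Tnnt2, Tnni3 and Myh6 were all highest in KO 3 and low in KO 1 and WT 3 (Myh6 in WT 1 as well), with 2.36- to 3.32-fold between the highest and the lowest array. Myh7 had the widest range of the 10 brightest probe sets, 3.62-fold, and ran the other way, highest in WT 3 and KO 1. Nppa and Pln stayed near the floor on every array.

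**Figure D1:**
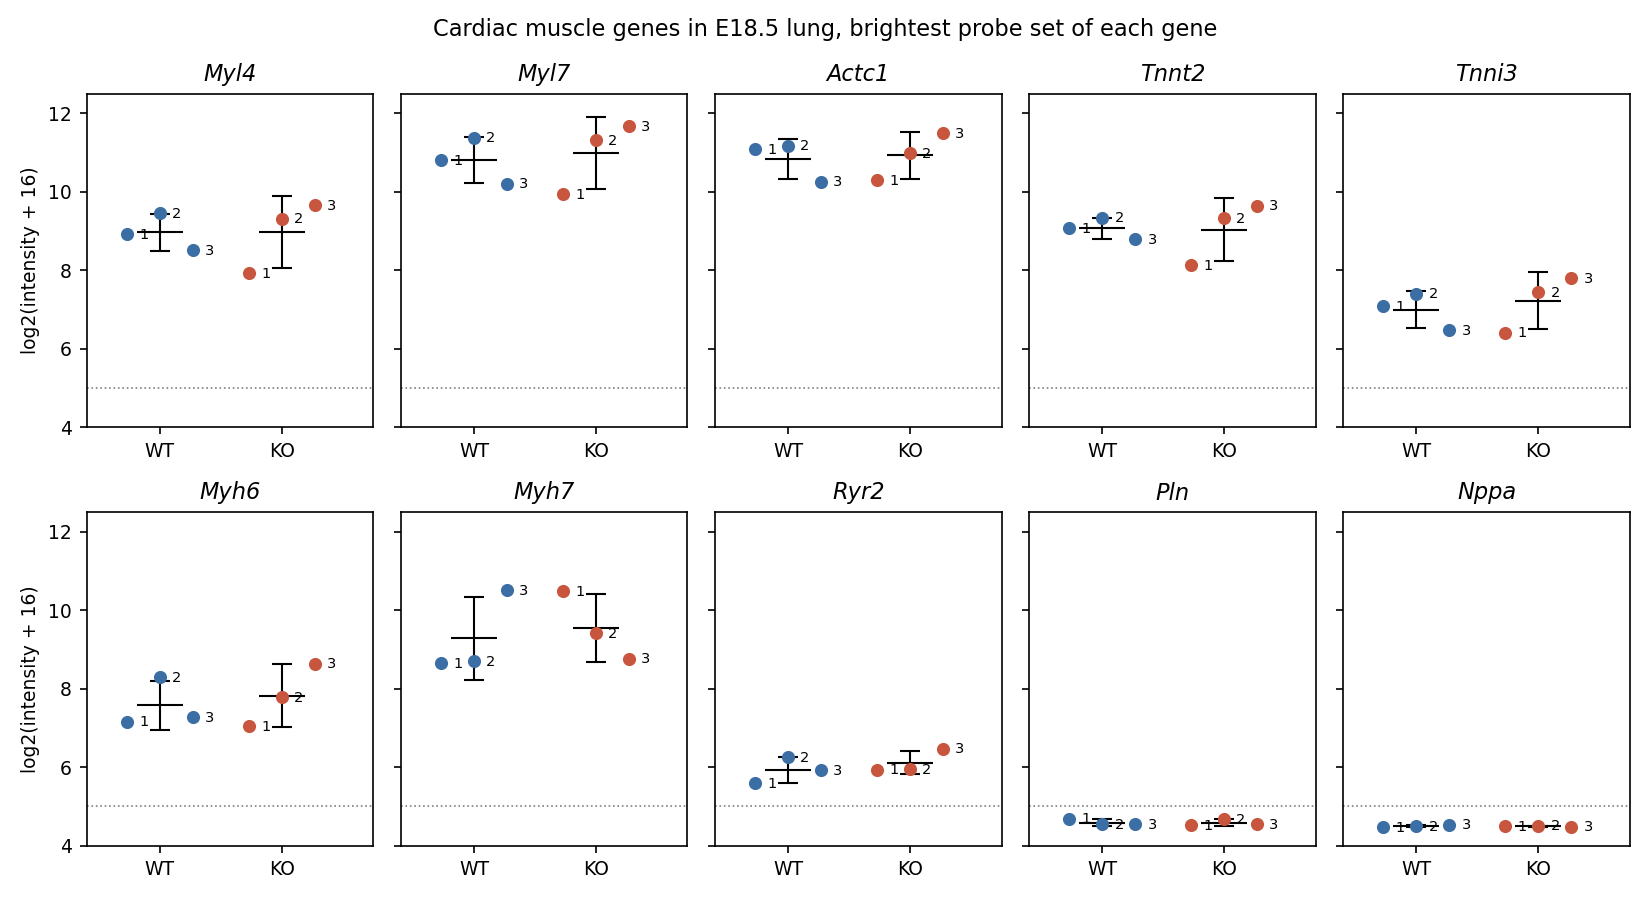
Level of each cardiac muscle gene, log2(intensity + 16), on the 3 arrays labelled WT (blue) and the 3 labelled KO (red), for the brightest probe set of each gene; numbers give the replicate, black lines the mean with SD and the dotted line the level of 5. The groups overlap in every panel, Myl7 spans 9.94 to 11.67 within the KO group alone, and Nppa and Pln lie below the dotted line.

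Of the light chains, Myl7, the atrial regulatory light chain, read 10.81, 11.38 and 10.20 in WT 1 to WT 3 and 9.94, 11.32 and 11.67 in KO 1 to KO 3. The lowest and the highest of the 6 arrays both carry the label KO, 3.32-fold apart. The means were 10.80 ± 0.59 in WT and 10.98 ± 0.91 in KO (SD, n = 3 each), and the difference of 0.18 (SE 0.52) did not pass in limma (adjusted p = 0.963). Its 95% interval, -1.11 to 1.48 or 0.463- to 2.79-fold, covers sizeable differences both ways. Myl4, the atrial essential light chain, read 8.92, 9.45 and 8.51 in WT and 7.92, 9.31 and 9.66 in KO. The arrays stood in the same order as for Myl7, and the difference was 0.003 (SE 0.50; 95% interval -1.24 to 1.24). A second probe set of Myl4 stayed near the floor.

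Among the thin filament genes, Actc1, the actin of the heart sarcomere, read 11.08, 11.17 and 10.25 in WT 1 to WT 3 and 10.29, 10.98 and 11.49 in KO 1 to KO 3. WT 3 and KO 1 lay below the other 4 arrays, and the difference between the labels was 0.09 (SE 0.38). Tnnt2, the troponin that anchors the complex to tropomyosin, read 9.06, 9.34 and 8.79 in WT and 8.12, 9.33 and 9.64 in KO. KO 1 was the lowest and KO 3 the highest, with a difference between the labels of -0.03 (SE 0.42). The second probe set of Tnnt2 above the floor gave a difference of -0.04 (SE 0.45), and another stayed near the floor. Tnni3, the inhibitory troponin of the adult heart, read 7.08, 7.40 and 6.48 in WT and 6.40, 7.45 and 7.80 in KO. It too was low in WT 3 and KO 1, and its difference was 0.23 (SE 0.44).

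The myosin heavy chain genes Myh6 and Myh7 are close paralogs and neighbours on chromosome 14. In the mouse Myh7 serves the fetal ventricle and slow skeletal fibres, and Myh6 the atria and, after birth, the ventricle. Myh6 read 7.16, 8.30 and 7.28 in WT 1 to WT 3 and 7.04, 7.79 and 8.64 in KO 1 to KO 3. KO 3 and WT 2 were the highest arrays and KO 1 the lowest, as for the light chains, and the difference between the labels was 0.24 (SE 0.50). Myh7 read 8.65, 8.69 and 10.50 in WT and 10.48, 9.41 and 8.76 in KO. Here WT 3 and KO 1 were the highest, 3.62-fold covering the whole range, and the difference was 0.27 (SE 0.66; 95% interval -1.36 to 1.90). The annotation assigns 2 more probe sets to both genes at once, so they are outside the choice of members and are given to neither gene. The brighter of them read 7.84, 8.41 and 9.38 in WT and 9.28, 8.31 and 8.34 in KO, highest in WT 3 and KO 1 like Myh7.

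Of the calcium-handling genes, Ryr2 read 5.60, 6.26 and 5.92 in WT 1 to WT 3 and 5.94, 5.95 and 6.47 in KO 1 to KO 3. KO 3 and WT 2 were again the highest, over a narrower range, and the difference was 0.19 (SE 0.28). The 3 probe sets of Pln and the single one of Nppa stayed near the floor. The brightest of Pln read 4.68, 4.54 and 4.54 in WT and 4.53, 4.68 and 4.55 in KO. Nppa read 4.47, 4.50 and 4.54 in WT and 4.49, 4.51 and 4.48 in KO. At these levels no difference could be measured in either direction, so the values say nothing about whether these RNAs were there in small amounts.

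Of the 17 probe sets, 0 passed an adjusted p of 0.05 in limma, beside 0% of all 45037 probe sets, and 0 had an unadjusted p under 0.05, beside 3.1% of all. The smallest unadjusted p among them was 0.375 in limma, for a probe set of Pln near the floor. In 0 of the 17 did all 3 KO arrays lie on one side of all 3 WT arrays, beside 8.48% of all probe sets (5.72% with KO above WT and 2.76% with KO below). By sign 11 read higher and 6 lower in KO, with a median difference of 0.004, beside 0.003 over all probe sets. One probe set per gene gave a median of 0.14. Of the 17, 8 stayed near the floor, between 4.35 and 4.68, and the 9 above it differed by -0.04 to 0.27. Station 1 washed no KO array, so with station as a block WT 1 and WT 2 add nothing to the difference. That fit and the arrays of station 2 alone, WT 3 against KO 1 to KO 3, therefore give the same differences by construction. They were 0.77 for Myl7, 0.45 for Myl4, 0.67 for Actc1 and -0.95 for Myh7, and rest on 1 WT array. Weighting the arrays by their estimated quality turned the sign of 7 of the 10 genes, to -0.60 for Myl7 and -0.71 for Myl4, and again called none.

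**Figure D2:**
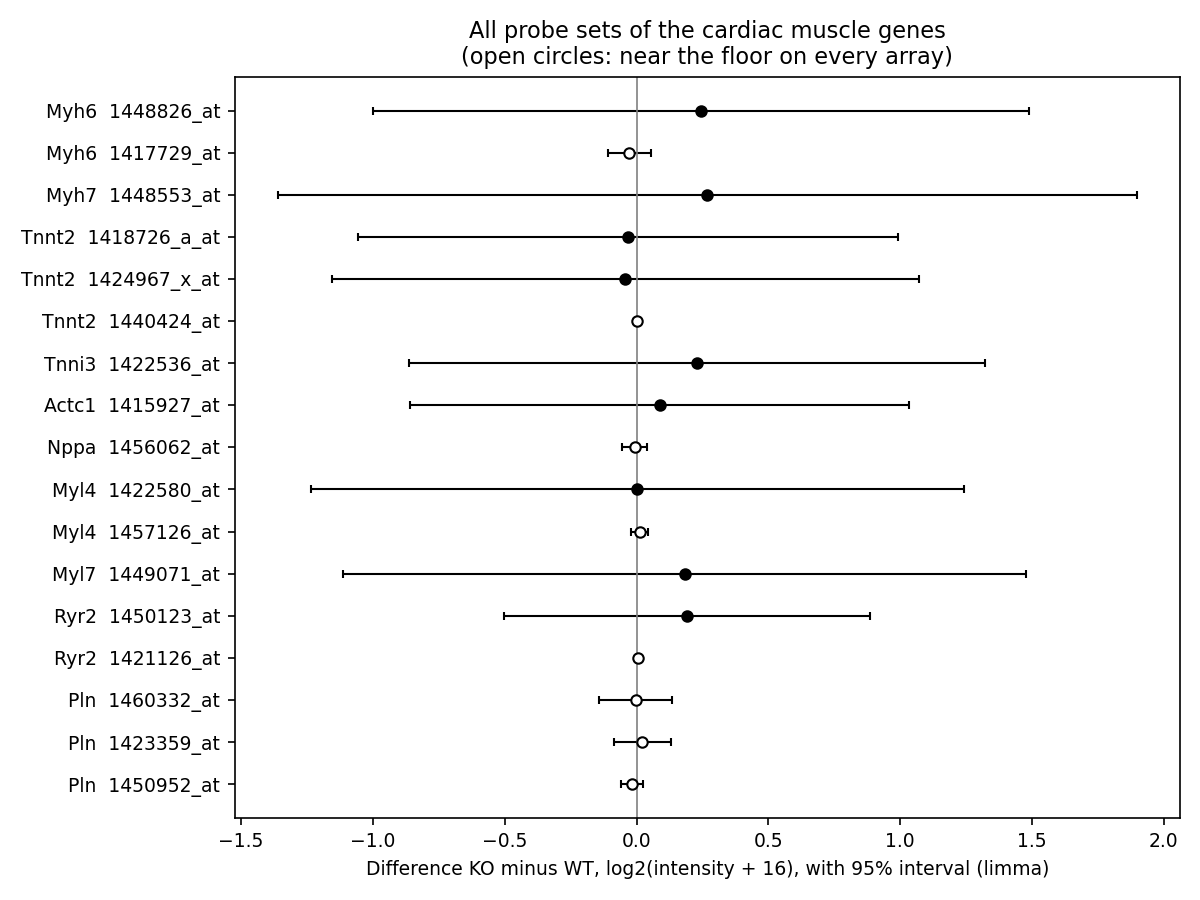
Difference KO minus WT in log2(intensity + 16) for each of the 17 probe sets, with the 95% interval of the limma fit; open circles mark the probe sets near the floor on every array. Every interval includes 0, and those of the probe sets above the floor reach from -1.36 to 1.90.

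The 6 genes Myl4, Myl7, Actc1, Tnnt2, Tnni3 and Myh6 varied together across the arrays. They were grouped after their values were seen, so the following is a description with no test. In all 6 genes KO 3 was the highest array, in 5 WT 2 was second, and in 5 KO 1 was the lowest. Over the 15 pairs of these genes and the 6 arrays, Pearson's r ran from 0.80 to 0.99 and Spearman's rho from 0.71 to 1. Against Myl7, r was 0.99 for Tnni3, 0.98 for Myl4, 0.96 for Tnnt2, 0.94 for Actc1 and 0.89 for Myh6. Without WT 3 and KO 1, the arrays farthest from the median of Myl7, these became 0.97, 0.99, 0.97, 0.68 and 0.97. For Myh7 r against Myl7 was -0.84 (rho -0.54) and became 0.17 without the same arrays, so the inverse relation rests on WT 3 and KO 1. For Ryr2 it was 0.59 and became 0.96. All these values share the same 6 hybridisations and their scaling. In bulk tissue, fewer heart muscle cells and less RNA per cell cannot be told apart.

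**Figure D3:**
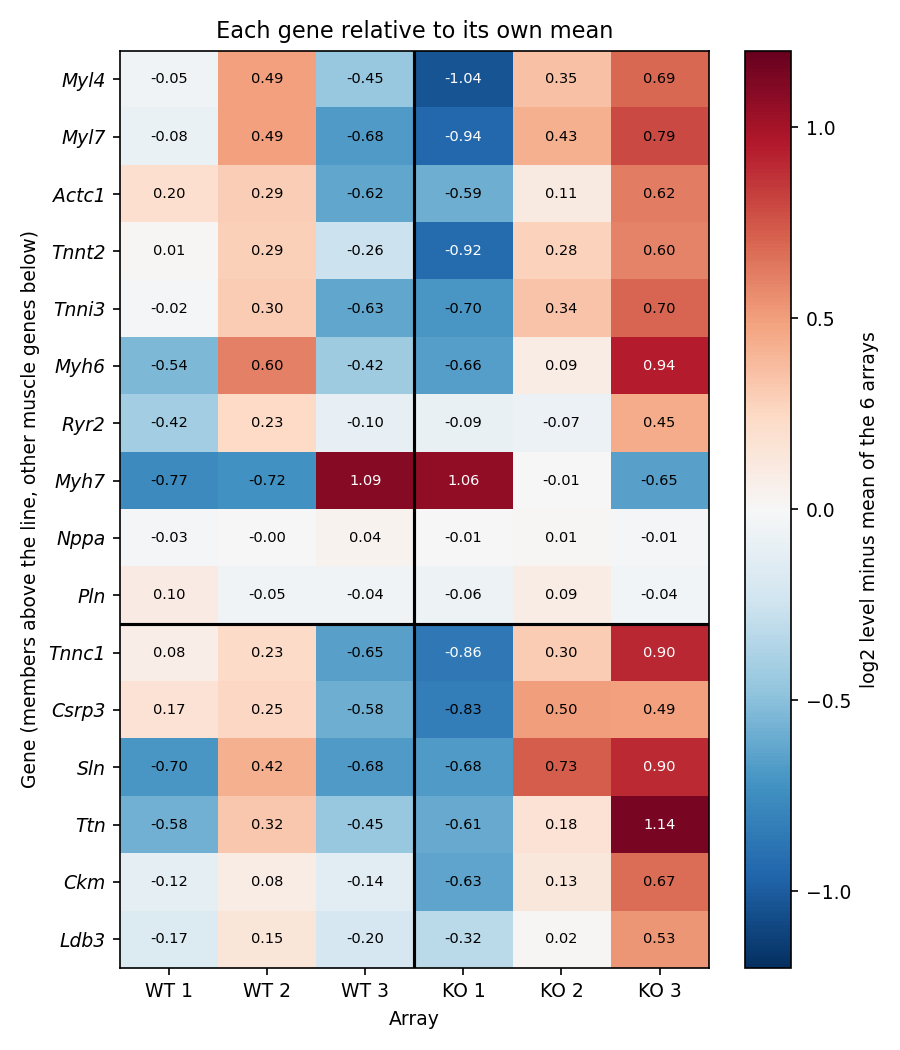
Level of each gene on each array minus its own mean over the 6 arrays, in log2 units, for the 10 cardiac muscle genes (above the horizontal line) and 6 other muscle genes chosen after their values were seen (below it). Red is above and blue below the mean; KO 3 is red and KO 1 blue in Myl4, Myl7, Actc1, Tnnt2, Tnni3 and Myh6, while Myh7 shows 1.09 in WT 3 and 1.06 in KO 1.

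The promoters of 4 members are shown because 3 of them, Myl7, Actc1 and Tnnt2, varied together and the fourth, Nppa, stayed at the floor. Each is the 250 bases before the annotated start, from RefSeq on build GRCm38.p6, written 5′ to 3′ on the strand of the gene, with the letters of a GATA motif or a CArG box in capitals. The GATA motif searched is the letters GATA with A or T before them and A or G after them, and the CArG box is the site of serum response factor. Both were searched on both strands, and no matches of different motifs overlapped in the members.
Myl7, chr11:5898783-5899032, strand minus: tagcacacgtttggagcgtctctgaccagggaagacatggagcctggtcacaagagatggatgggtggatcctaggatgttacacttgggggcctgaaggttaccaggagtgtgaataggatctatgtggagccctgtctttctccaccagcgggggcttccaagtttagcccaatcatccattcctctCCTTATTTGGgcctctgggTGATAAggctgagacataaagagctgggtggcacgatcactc
Actc1, chr2:114052876-114053125, strand minus: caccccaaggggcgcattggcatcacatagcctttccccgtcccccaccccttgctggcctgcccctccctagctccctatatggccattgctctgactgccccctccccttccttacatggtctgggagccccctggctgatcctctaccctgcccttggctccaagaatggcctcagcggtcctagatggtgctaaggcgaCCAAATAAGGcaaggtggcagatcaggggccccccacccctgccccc
Tnnt2, chr1:135836084-135836333, strand plus: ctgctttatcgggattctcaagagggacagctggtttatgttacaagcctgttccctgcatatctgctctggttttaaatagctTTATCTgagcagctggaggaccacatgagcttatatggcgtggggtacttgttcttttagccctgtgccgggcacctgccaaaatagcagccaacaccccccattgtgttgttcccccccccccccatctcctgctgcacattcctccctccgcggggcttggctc
Nppa, chr4:148000472-148000721, strand plus: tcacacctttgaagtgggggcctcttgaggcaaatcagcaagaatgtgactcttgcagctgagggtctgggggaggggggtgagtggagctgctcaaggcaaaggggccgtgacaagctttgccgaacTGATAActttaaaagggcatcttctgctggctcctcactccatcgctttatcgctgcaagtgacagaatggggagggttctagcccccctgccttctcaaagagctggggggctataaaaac
All 10 members matched the RefSeq table, with 12 start sites among them. The window of Myl7 holds a CArG box 61 bases and a GATA motif 42 bases before the start, and that of Actc1 a CArG box 47 bases before it. In Tnnt2 the GATA motif lies 166 bases before the start, in the window shown of its 2, and on the opposite strand. Nppa has one 122 bases before the start. A GATA motif stood in 5 of the 12 windows, 1 each of Myh6, Myl7, Nppa, Pln and Tnnt2, beside 26.5% of 32851 windows of the same length, and a CArG box in 2, beside 1.47%. The MEF2 site was found in none of the members' windows and in 1.69% of all. Genes with and without a GATA motif are found both among those that varied together and among those near the floor or apart from them. A match is a run of letters, not a measured binding site.

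The wider machinery of the heart sarcomere showed no call between the labels either. Of 24 further sarcomere and Z-disc genes, 0 passed in limma over all probe sets, with a median difference of 0.003. An unadjusted p under 0.05 in limma was found for 1 of the 24, beside 3.1% of all probe sets. Tnnc1, the calcium-binding troponin of heart and slow muscle, read 8.47, 8.63 and 7.75 in WT 1 to WT 3 and 7.54, 8.70 and 9.30 in KO 1 to KO 3. It was low in WT 3 and KO 1 and highest in KO 3, as Myl7 was (r 0.97 over 6 arrays, rho 0.94; r 0.85 without WT 3 and KO 1). Csrp3, a Z-disc protein of striated muscle, gave r 0.96 (rho 0.83; 0.75 without them), and the giant protein titin, Ttn, 0.87 (rho 0.94; 0.98 without them). Not all of the list followed Myl7. Over its 18 genes above the floor, r ran from -0.68 for Des to 0.97 for Tnnc1. It was -0.55 for Tpm1, -0.35 for Nebl, 0.31 for Cryab and 0.38 for Smpx. The members of this list with the highest levels, Cryab and Nebl, differed by -0.29 (SE 0.27) and -0.10 (SE 0.16). Smpx, a small muscle protein, had that unadjusted p, with a difference of -0.57 (SE 0.22, adjusted p = 0.963 in limma). Of the 24, 6 stayed near the floor: Lmod2, Myl2, Myoz2, Nrap, Tcap and Xirp1.

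Of 14 measured genes of calcium handling and ion channels of the heart, 0 passed in limma and 6 were near the floor, with a median difference of 0.01. An unadjusted p under 0.05 in limma was found for 1 of the 14, beside 3.1% of all probe sets. Sln, which encodes the calcium pump regulator sarcolipin of atrial and skeletal muscle, read 6.28, 7.40 and 6.30 in WT and 6.30, 7.71 and 7.88 in KO. KO 3, KO 2 and WT 2 were high and the other 3 arrays lay at one level, with a difference of 0.63 (SE 0.54). The brightest of the list, the gap junction gene Gja1 and the calcium pump gene Atp2a2, are also made by many lung cells. Gja1 differed by -0.55 (SE 0.18, adjusted p = 0.963 in limma) and Atp2a2 by 0.11 (SE 0.32). Of 12 genes of muscle energy metabolism 0 passed in limma, with 0 at an unadjusted p under 0.05 and a median of 0.06. Slc25a4, the ADP/ATP carrier, differed by -0.08 (SE 0.09) and Acadl, an enzyme of fat oxidation, by 0.01 (SE 0.24). Myoglobin (Mb) and the mitochondrial creatine kinase gene Ckmt2 stayed near the floor.

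Of 20 measured cardiac transcription factors, 13 read above the floor and 7 stayed near it on all 6 arrays: Gata4, Hand1, Hand2, Irx4, Isl1, Nkx2-5 and Shox2. Among the 13, Tbx20 (5.20) and Smyd1 (5.11) passed the level of 5 in WT 2 alone. Above the floor, Mef2c averaged 8.54 over the 6 arrays, Tbx5 8.45, Gata5 8.09 and Hey2 6.54, with differences of -0.08, -0.12, 0.004 and 0.03 between the labels. None of the 20 passed in limma, and 3 had an unadjusted p under 0.05, beside 3.1% of all probe sets: Gata6 at 0.79 (SE 0.25), Tbx3 at -0.83 (SE 0.27) and Myocd at -0.68 (SE 0.23). Tbx3 also marks lung mesenchyme, and Myocd, the coactivator of smooth and cardiac muscle genes, also serves the smooth muscle of the lung. The brightest of the list, Hopx and Mef2a, differed by -0.36 (SE 0.34) and -0.07 (SE 0.17), and Hopx is also a gene of alveolar type I cells.

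Markers of the chambers were described gene by gene, with no test of a list. Of 13 measured atrial and pulmonary vein markers, 8 read above the floor (Myl4, Myl7, Sln, Stard10, Nr2f2, Dkk3, Tbx5 and Kcna5), and Bmp10, Gja5, Kcnj3, Mybphl and Nppa stayed near it. Of the 8, Nr2f2 and Tbx5 are also genes of lung mesenchyme. Over the 6 arrays r with Myl7 was 0.98 for Myl4 and 0.90 for Sln. It was -0.01 for Dkk3, -0.17 for Kcna5, -0.27 for Stard10, and -0.78 for both Nr2f2 and Tbx5. The count above the floor is therefore not a count of genes that varied with Myl7. None of the 13 passed in limma, and 0 had an unadjusted p under 0.05, beside 3.1% of all probe sets. Of the pair named by level, Myl7 and Stard10, the latter differed by 0.29 (SE 0.13). Of 10 ventricular markers, 5 read above the floor (Gja1, Myh7, Hey2, Myl3 and Mybpc3), and Myl2, Nppb, Irx4, Kcne1 and Hand1 stayed near it. Myl3, the ventricular essential light chain, read 5.50, 5.86 and 5.52 in WT and 5.53, 5.60 and 5.52 in KO, with a difference of -0.08 (SE 0.16). Myl2, the ventricular regulatory light chain, read 4.56, 4.44 and 4.45 in WT and 4.45, 4.46 and 4.48 in KO. None of the 10 passed in limma, and 1, Gja1, had an unadjusted p under 0.05, beside 3.1% of all probe sets. The brightest, Gja1 and Myh7, are given above.

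Other muscle and neighbouring tissues were read from marker lists, as the sum of linear intensities over each list, which its brightest genes dominate. Of 23 skeletal muscle markers 17 stayed near the floor, among them Acta1, Myod1 and Myog, and the sum ran from 289 to 411 in WT and from 325 to 392 in KO. Tnni1, the slow skeletal troponin also made in fetal heart, gave r 0.88 with Myl7 (rho 1; 0.83 without WT 3 and KO 1), and Tnnt1 gave r 0.51 (rho 0.60; 0.73 without them). All 10 measured thymus markers stayed near the floor, as did 7 of 8 nerve, 8 of 11 cartilage, 6 of 8 oesophageal and 4 of 6 brown fat markers. The 11 smooth muscle markers summed to between 13303 and 17718 in WT and between 11871 and 15982 in KO, and the sum was highest in WT 3, where Myl7 was low. By sign 10 of the 11 read lower in KO, with a median difference of -0.29, beside 0.0025 over the brightest probe sets of all genes. The share of all genes that read lower was not counted, and the 11 are not independent, as they share the same 6 arrays. Of the 11, 1, Myocd, had an unadjusted p under 0.05, beside 3.1% of all probe sets. The brightest of them, Mylk and Acta2, differed by 0.04 (SE 0.12) and -0.23 (SE 0.22), and the lowest difference was that of Smtn, at -0.85 (SE 0.35). No member of any of the 17 other lists passed in limma.

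Markers of non-muscle tissue also varied across the labels. Upk3b, a gene of the mesothelium that covers lung and heart, read 12.13, 11.99 and 11.16 in WT 1 to WT 3 and 10.29, 12.09 and 11.75 in KO 1 to KO 3. It was low in WT 3 and KO 1 like Myl7 (r 0.80, rho 0.43), and among the other 4 arrays its order was the opposite (r -0.85). The summed intensity of the 7 epicardial and mesothelial markers, 0 of them near the floor, was 28292 to 31812 in WT and 26917 to 31912 in KO. Tcf21 gave 20057 to 22200 of that sum and ranged only 1.11-fold over the 6 arrays, so the sum hides wider ranges. Upk1b ranged 3.89-fold, Upk3b 3.56-fold, Lrrn4 2.33-fold, Wt1 2.30-fold, Msln 2.04-fold and Tbx18 1.57-fold. KO 1 was the lowest array for Upk3b, Lrrn4, Wt1 and Msln, but not for Upk1b and Tbx18. The 9 lung epithelial markers summed to 124910 to 176260 in WT and 73081 to 155020 in KO, lowest in KO 1, where Sftpc, the surfactant protein of alveolar type II cells, read 12.71 against 15.37 or more on the other 5 arrays. Among these 9, r with Myl7 ran from -0.86 for Nkx2-1 to 0.89 for Sftpa1. For Sftpa1 rho was 0.77, and r was 0.80 without WT 3 and KO 1. The member Myh6 gave an r of 0.89 with Myl7 as well. Liver markers summed to 56.7 to 579.7 in WT and 178.5 to 1397 in KO, with 1397 in KO 1, and Ahsg, Apoa1 and Fgb near the floor. The 4 measured red cell markers, with Epb42 and Hba-a1 near the floor, summed to 1738 to 4174 in WT and 1087 to 2227 in KO, highest in WT 2. Hba-a1 read 4.38 to 4.40 on the 6 arrays, where Alas2 read 9.83 to 11.84. Probe sets that name several genes were given to no gene, so the Hba-a1 value does not show that globin RNA was absent. The signal of bright probe sets without a gene name, relative to that of named ones, was -0.87, -1.98 and -1.88 in WT and -1.97, -1.19 and -0.66 in KO, highest in KO 3 and low in KO 1 and WT 3 as Myl7 was, and low in WT 2, where Myl7 was high. The part of each of these in the pattern of the heart muscle genes was not tested.

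**Figure D4:**
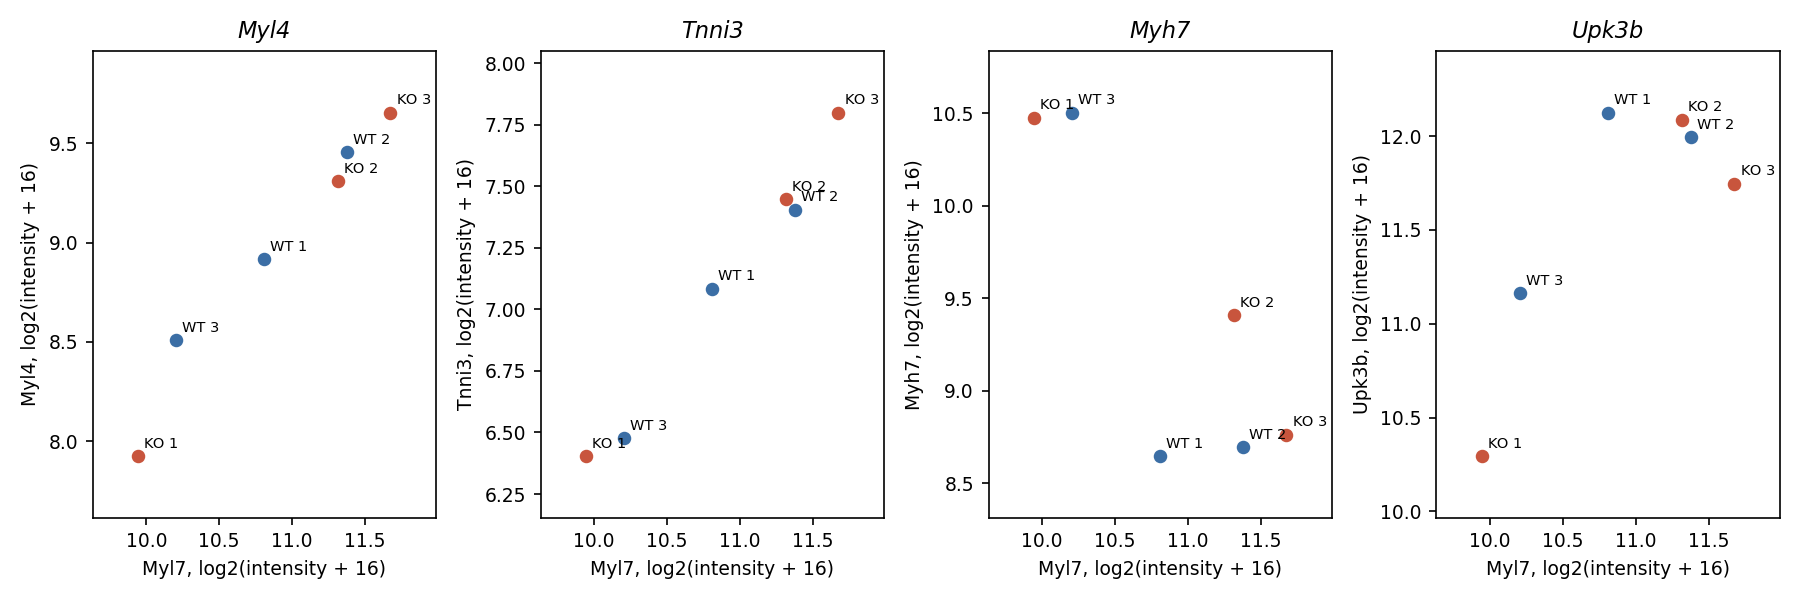
Level of Myl4, Tnni3, Myh7 and Upk3b against that of Myl7 on the 6 arrays, all in log2(intensity + 16), WT in blue and KO in red. Myl4 and Tnni3 are higher where Myl7 is higher, Myh7 is highest in KO 1 and WT 3, and Upk3b is lowest there.

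Across all genes, those most like the members were named by a set rule. The mean of the 10 members' centred levels was -0.16, 0.19 and -0.21 in WT 1 to WT 3 and -0.39, 0.16 and 0.41 in KO 1 to KO 3. That mean takes in Myh7, which ran the other way, and Nppa and Pln, which stayed near the floor. Among 913 brighter genes with an SD of at least 0.5 log2 over the 6 arrays, the 15 with the highest Pearson correlation with that mean over 6 arrays reached r from 0.81 to 0.98. They were Gdpd3, Ms4a6b, Plac8, Sln, Tnnc1, Ms4a6d, Csrp3, Ifi27l2a, Sftpa1, Rtp4, Mndal, Fam221a, Rps6, Trim34a and Lyz1. Of these 3, Sln, Tnnc1 and Csrp3, stand in the muscle lists, and Sftpa1 stands in the list of lung epithelial markers. The rest, most of the 15, stand in none of the lists. The share of listed genes among the 913 was not counted. Without KO 1 and KO 3, the arrays farthest from the median of that mean, r ran from 0.36 for Mndal to 0.996 for Plac8. The closest, Gdpd3, a glycerophosphodiester phosphodiesterase family gene, read 6.15, 8.67 and 5.37 in WT and 5.33, 8.64 and 9.82 in KO, in the same order as the mean. None of the 15 passed the comparison of the labels in limma.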

How the data were processed

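Total RNA of whole lung was measured on 6 arrays, with 3 in each of the WT and KO groups. The authors deposited an intensity per probe set on a linear scale; the submitters' processing notes list GCRMA and MAS5 without saying which produced these values. The number of arrays limits the precision. The deposited experiment files, whose content is of another kind than expression, gave only station and scan order. All WT arrays were scanned before the KO arrays, so the scan order cannot be told apart from the group.

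Intensities were taken to log2 after adding 16, with no further scaling or filter. Control probe sets (64 of 45101) were left out. The array annotation names 1 gene for 34945 probe sets, 34741 of them through a current gene ID of GRCm38.p6, several for 932 and none for 9160. The test of each probe set was limma 3.58.1 (lmFit, eBayes with trend) under R 4.3.3, two-sided, with p-values adjusted over all 45037 after Benjamini and Hochberg. A gene is represented by its probe set with the highest mean. Members and lists were chosen with earlier results of these data known, and the floor of 5 after the values were seen. From each list of heart, skeletal or smooth muscle genes the text names members past the threshold or the 2 brightest. The lists of other tissues are given as sums or as counts near the floor, and their 2 brightest are not all named. Other genes were named after their values were seen. Alternatives were other eBayes settings, array weights, scalings, filters, probe set choices, pseudocounts, blocks, and leaving out each array.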

Additional observations from a re-analysis of the deposited data

How the results depend on the processing

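None of the 10 genes passed in limma in any alternative that gave it a value, 19 for 8 genes and 18 for Nppa and Pln, which have none without dim probe sets. Across these alternatives the adjusted p of the genes ran from 0.521 to 1. Signs were less stable. With array weights the median over genes moved from 0.135 to -0.382, and Myh6 (-0.682), Tnni3 (-0.358), Actc1 (-0.405), Myl4 (-0.708), Myl7 (-0.598), Ryr2 (-0.213) and Pln (0.0448) turned; the cause was not tested. Myl4 turned to -0.0309 with median centring and to -0.00228 with a pseudocount of 1, and Pln to 0.00082 with the mean of all probe sets per gene. With station as a block, and likewise within station 2, Myh7 (-0.953), Tnnt2 (0.241) and Pln (0.0426) turned; the WT arm is then 1 array, assumed to vary like the others. Without dim probe sets the median over member probe sets was 0.183, over the 9 that remain. Over all features limma called 0 in the main analysis (1394 at an unadjusted p under 0.05), 1 with median centring, 1 with 1 probe set per gene, 1 with the mean per gene, 37 with station as a block and 0 within station 2.

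Leaving out each array in turn gave 0 calls throughout. The median over member probe sets ran from -0.0174 to 0.0729 and that over genes from -0.113 to 0.413. The genes ran from -0.165 to 0.636 (Myh6), -0.195 to 0.879 (Myh7), -0.338 to 0.422 (Tnnt2), -0.0623 to 0.635 (Tnni3), -0.203 to 0.404 (Actc1), -0.0221 to 0.0112 (Nppa), -0.343 to 0.522 (Myl4), -0.165 to 0.7 (Myl7), 0.0158 to 0.357 (Ryr2) and -0.0504 to 0.0437 (Pln). Residuals of arrays with the same replicate number correlated at -0.757, 0.0199 and -0.483, so the numbers were not taken as pairs; with the replicate block 0 probe sets passed and the median over genes was 0.135.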

Other observations

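Myh7 stood apart from the other heart muscle genes, and the genes most like it were named after its values were seen, by the same rule. Among the 913 brighter genes with an SD of at least 0.5 log2, the 10 closest to Myh7 over 6 arrays (r 0.92 to 0.99) were Epb41l1, L1cam, Map1b, Snapc3, Inava, Dsp, Pcm1, Epcam, Pdlim1 and Psmc3ip. None of the 10 stands in a muscle list. Epcam, a surface protein of epithelial cells, read 9.79, 10.14 and 10.92 in WT 1 to WT 3 and 11.36, 10.37 and 10.33 in KO 1 to KO 3, highest in KO 1 and WT 3 (r 0.92, rho 0.94; r 0.63 without the 2 arrays farthest from the median of Myh7). Dsp, the desmosomal protein desmoplakin of epithelia and heart, gave r 0.93 (rho 0.66), and 0.23 without those arrays. Map1b and L1cam, genes of neurons and their axons, gave 0.96 and 0.97 (0.60 and 0.80 without them).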
